A study of Rattus norvegicus with 18 samples.

Results

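The genes described here are 7 immune genes, of the kind that microglia, the resident macrophages of the brain, express in tissue of the rat suprachiasmatic nucleus (SCN): Cd74, B2m, Ctss, C1qb, C3, Aif1 and Ptprc. They were chosen by symbol, as every probe set of the array whose single annotated gene symbol is one of the 7. This gave 16 probe sets of 8740 and 7 genes of 4736. The SCN, a small paired nucleus of the hypothalamus, is the master circadian pacemaker in mammals. Its RNA was read on U34A GeneChips, 1-colour arrays of short probes grouped in sets, with 1 or more sets for a gene. The animals were adult male Long-Evans rats of 175 to 200 g with no genetic change or drug named in the labels. They had lived with 12 h of light a day, entered constant darkness at circadian time (CT) 12, the usual lights-off, and were killed from the following CT 0 on at intervals of 6 h.

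The RNA of the 5 rats of a time point was pooled, so that 1 pool stands for each of 0, 6, 12, 18, 24, 30, 36 and 42 h. CT 12 (the 12 and 36 h pools), CT 0 (0 and 24 h), CT 6 (6 and 30 h) and CT 18 (18 and 42 h) have 2 pools each, and day 2 (24 to 42 h) and day 1 (0 to 18 h) have 4 each. All groups share the prior light cycle and the constant darkness, and no group was kept in light. The same pools were read in a technical repeat of 8 arrays and in a first run of 10 arrays, which has a pair of arrays, a and b, at 24 and at 36 h. Each pool is the only one of its time point, so p-values rest on how far the pools lie from a fitted curve, which includes array error.

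Microglia clear debris and dying cells, sense damage and infection, and can present peptides to T cells. MHC class I molecules, whose light chain is beta-2-microglobulin, display peptides from within a cell, while class II molecules display peptides taken up from outside and need the invariant chain Cd74 to reach the compartment where they are loaded. In the complement system, C1q starts the classical cascade and C3 is the protein on which all its routes meet, and both are known for tagging synapses that microglia remove.

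The upstream promoters of 3 of the genes are printed to show which motifs of interferon response and of the clock stand before their starts (RefSeq, GRCr8, plus strand; base -1 is the last base before the annotated start). Capitals mark matches to the core of the interferon-stimulated response element (GAAA, any 2 bases, GAAA), to the ROR/REV-ERB core site AGGTCA, through which nuclear receptors of the clock act, or to the CCAAT box, each searched on both strands. The first stretch is chr3:129549160-129549289 (bases -170 to -41), the second chr2:185775226-185775385 (bases -170 to -11) and the third chr18:56526996-56527165 (bases -210 to -41).
B2m: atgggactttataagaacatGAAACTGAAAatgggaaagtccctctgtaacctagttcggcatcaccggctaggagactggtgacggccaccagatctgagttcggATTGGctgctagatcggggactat
Ctss: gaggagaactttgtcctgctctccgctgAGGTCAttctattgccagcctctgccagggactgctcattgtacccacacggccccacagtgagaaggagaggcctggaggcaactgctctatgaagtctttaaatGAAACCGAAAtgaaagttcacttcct
Cd74: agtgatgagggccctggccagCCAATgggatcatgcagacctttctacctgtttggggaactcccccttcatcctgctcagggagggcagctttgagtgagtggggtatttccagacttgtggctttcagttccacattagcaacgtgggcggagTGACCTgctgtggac

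A promoter of 300 bases, which runs from 250 bases before to 50 after the start, was at hand for 6 of the 7 genes, all but Aif1. The interferon core stood at -150 in B2m and at -36 in Ctss, and in 3.92% of the 33469 promoters of the table. The site AGGTCA was found in Ctss (-142), Cd74 (-55) and C3 (-225), and in 16.2% of all promoters. The E-box CACGTG, which CLOCK and BMAL1 bind, was in none of the 6 and in 6.42% of all promoters. The D-box forms TTATGTAA and TTACGTAA, bound by PAR bZIP factors such as Dbp, were likewise in none of the 6, and in 0.893% and 0.12% of all promoters. A match only describes these letters, and its absence only this window.

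Levels are given as the authors' intensities, which have no unit and are not comparable between probe sets. Of the 16 probe sets, 6 passed the level filter, meaning that their mean over the pools exceeded that of the middle probe set of the array (geometric mean 121): 1 each of Cd74, B2m, Ctss, C1qb, Aif1 and Ptprc. These entered the tests with 4370 probe sets in all. No probe set of C3 passed, and 10 of the 16 lie below the filter. Cd74, C1qb, Ctss, Aif1 and Ptprc belong to the 10 microglial markers listed for this work. Of the other 5, Csf1r, Cx3cr1 and Itgam were below the filter, with pools of 13.5 to 22.7, 73.2 to 140 and 12.1 to 17.9, and Cd68 and Tyrobp had no probe set named by them alone. A broader microglia and macrophage list had 14 of 21 genes above the filter, where 2820 of the 4736 genes of the array were. Among the 14 were P2ry12, a purine receptor of microglia (pools of 334 to 702), Ptpn6, Lyn, Cd14 and Lyz2, but also Apoe and Cx3cl1. Its genes Fcgr2b, Cd53, Cd37 and Irf8 were below the filter. In whole tissue, fewer cells of a type and less RNA per cell cannot be told apart.

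**Figure D1:**
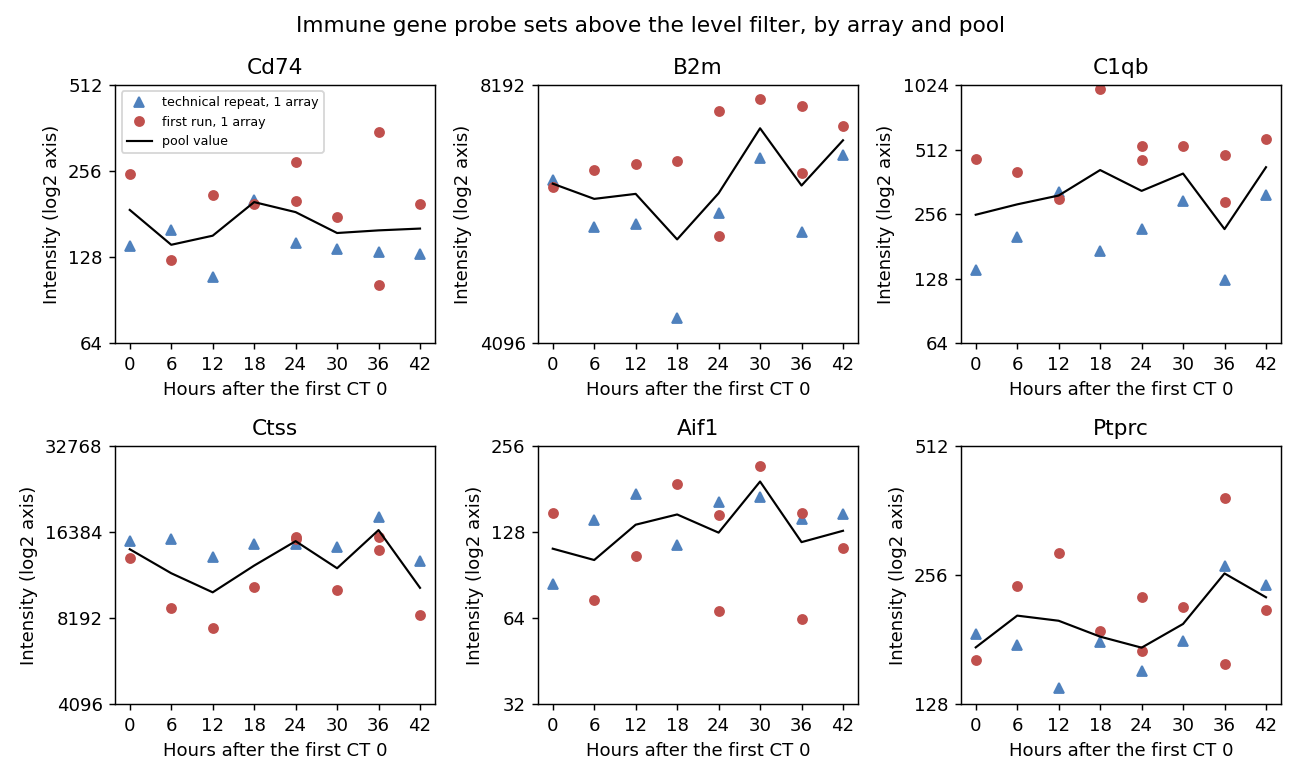
Intensity of the 6 probe sets above the level filter, on log2 axes that differ between panels, against hours after the first CT 0. Triangles are arrays of the technical repeat, circles arrays of the first run (2 at 24 and 36 h), and the line joins the pool values, which weigh both runs equally. Triangles lie below the circles in 7 of 8 pools for C1qb and above them in 7 of 8 for Ctss.

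No rhythm and no phase or day difference was detectable beyond the spread of the pools in any of the 6 genes. In limma's moderated tests with Benjamini-Hochberg adjustment over all tested probe sets, 0 of 6 passed 0.05 for a 24-h rhythm, where 0% of all tested probe sets did. For CT 12 against CT 0, 0 of 6 passed (0% of all), for CT 6 against CT 18, 0 of 6 (0.0229% of all), and for day 2 against day 1, 0 of 6 (0% of all). At an unadjusted p under 0.05 the counts were also 0 of 6 in each, where 6.36%, 8.67%, 4.26% and 3.96% of all tested probe sets passed. With no level filter, limma called 0 of 16 after adjustment in each contrast. The unadjusted counts were then 2 of 16 for the rhythm (6.51% of all 8740), 0 for CT 12 against CT 0 (8.33%), 2 for CT 6 against CT 18 (5.42%) and 0 for the days (5.14%), from 1 probe set of Cd74 and 1 of C3 that are at the floor on many arrays. The fitted amplitudes, the distance from the mean to the peak on the log2 scale, ran from 0.04 to 0.20 with a median of 0.14, against a median of 0.16 over all tested probe sets. The 95% intervals bound what these pools leave possible: over the 6 genes, the bound farthest from 0 was 0.83 (log2) for CT 12 minus CT 0, 1.00 for CT 6 minus CT 18 and 0.62 for day 2 minus day 1.

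Among the genes of antigen presentation, Cd74, the invariant chain of MHC class II, had the following intensities. Day 1 gave 187 (0 h), 142 (6 h), 152 (12 h) and 200 (18 h), and day 2 gave 184 (24 h), 156 (30 h), 159 (36 h) and 161 (42 h). The CT 12 pools (152 and 159) both lay below the CT 0 pools (187 and 184), and the CT 6 pools (142 and 156) below the CT 18 pools (200 and 161). The highest pool, at 18 h, was 1.41 times the lowest, at 6 h. CT 12 minus CT 0 was -0.26 ± 0.18 (SE on log2, n = 2 pools per phase; limma adjusted p = 0.690) and CT 6 minus CT 18 was -0.27 ± 0.18 (adjusted p = 0.968). The fitted amplitude was 0.19 ± 0.09 with a peak at CT 20.9 (adjusted p = 0.775), and exact permutation of the pools among the times gave p = 0.105, two-sided. Day 2 averaged 165 and day 1 168 (geometric means of 4 pools).

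The Cd74 value at 36 h rests on arrays far apart. The technical repeat read 133.6 there, and arrays a and b of the first run read 102.3 and 349.6, a 3.42-fold gap. Array b at 36 h and the first-run arrays at 12 and 18 h are the 3 arrays whose bacterial and phage hybridisation controls, RNAs added at hybridisation, were high, with means of 12.2 to 12.6 on log2 against 10.1 to 11.2 on the others. Without these 3 arrays, the 12 and 18 h pools of every gene rested on the technical repeat alone, adjusted for the mean run difference. In that setting CT 12 minus CT 0 of Cd74 was -0.64 ± 0.20 (unadjusted p = 0.0108, limma adjusted p = 0.561). The amplitude was then 0.37 ± 0.10 with a peak at CT 22.1 (unadjusted p = 0.0163, limma adjusted p = 0.638). Cd74 was the only one of the 6 genes with an unadjusted p under 0.05 in that setting. The part of the hybridisation controls in these values was not tested further.

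The other 3 probe sets of Cd74 lay below the filter, at pool values of 23.3 to 112, 13.6 to 21.5 and 21.1 to 44.5. Their correlations with the tested probe set over the 8 pools were between 0.09 and 0.42, as a description of values from the same arrays. One of them (X14254cds_at) was at or under the floor of 12.1 on 8 of 18 arrays. Its pools read 16.0 and 13.6 at CT 6 and 21.3 and 21.5 at CT 18, and no fold is given so close to the floor. In X13044_g_at the CT 12 pools (35.2 and 35.4) lay above the CT 0 pools (33.8 and 29.0), opposite to the tested probe set. Of all 8740 probe sets, 25.1% had CT 12 pools above their CT 0 pools.

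B2m, the light chain of MHC class I molecules, is made by nearly all nucleated cells and is thus no microglial marker. It had the smallest SD between pools of the 6 genes. It read 6287, 6036, 6117 and 5414 at 0, 6, 12 and 18 h, and 7293 at 30 h and 7062 at 42 h were its highest pools. The pools at 24 and 36 h read 6127 and 6256, within the range of day 1. The days thus overlapped, with day 2 minus day 1 at 0.16 ± 0.14 (SE on log2, n = 4 pools per day; limma adjusted p = 0.997; exact permutation p = 0.114, two-sided). The SD between pools was 0.13 on log2, and that expected from array error alone 0.09. CT 12 minus CT 0 was -0.00 ± 0.19, with a 95% interval of -0.43 to 0.42, and the fitted amplitude was 0.05 ± 0.10.

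Ctss encodes cathepsin S, a lysosomal protease that cuts the invariant chain. Its pools read 14249, 11748, 10075 and 12493 on day 1, and 15203, 12228, 16618 and 10447 on day 2, in the order of sampling. The pools of CT 12 lay farthest apart: the 36 h pool was the highest of the 8 and the 12 h pool the lowest, 1.65-fold apart. CT 12 minus CT 0 was -0.19 ± 0.26 (limma adjusted p = 0.862), and without the 36 h pool it was -0.57, without the 12 h pool 0.01. The fitted amplitude was 0.10 ± 0.13 and day 2 minus day 1 was 0.15 ± 0.19 (limma adjusted p = 0.997). Its order of pools was held between runs more than in the other 5 genes, with a Pearson r of 0.68 over the 8 pools, against 0.41 for B2m and -0.26 to -0.07 for Cd74, C1qb, Aif1 and Ptprc. Over all tested probe sets the median r was 0.09, and these correlations are descriptions.

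Of the complement genes, C1qb, the B chain of C1q, read 254, 285, 313 and 411 on day 1, and 329, 396, 218 and 424 on day 2, each from CT 0 to CT 18. Both CT 6 pools (285 and 396) were below both CT 18 pools (411 and 424). The difference was -0.31 ± 0.31 (SE on log2, n = 2 pools per phase; limma adjusted p = 0.968). It was 0.06 in the technical repeat alone and -0.69 in the first run alone, where the 18 h array, one of the 3 with high hybridisation controls, read 976 and the others 292 to 571. Without those 3 arrays it was 0.03. The difference between the runs in this contrast was not beyond the spread (0.75, limma unadjusted p = 0.286). The amplitude was 0.17 ± 0.15 (adjusted p = 0.872) with all arrays and 0.04 without the 3.

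The second C1qb probe set, X71127_g_at, read the same transcript at 57.6 to 238 and just missed the filter, with a geometric mean of 114. It followed the first over the pools with r = 0.79 (n = 8, shared arrays). Its CT 6 pools read 70.6 and 143 and its CT 18 pools 238 and 152, so that they too did not overlap. CT 6 minus CT 18 was -0.92 ± 0.61 in the fit without a filter (limma adjusted p = 0.929).

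C3, the protein that all complement routes cleave, was at the lower end of what the array measured. Probe set M29866_s_at was under the floor of 12.1 on 8 of 8 arrays of the technical repeat and on 4 of 10 arrays of the first run. The highest array, of the first run at 30 h, read 38.4. This probe set had the smallest p of the 16 in the rhythm fit without a filter (limma unadjusted p = 0.00991, adjusted p = 0.729; exact permutation p = 0.00952, two-sided, for 1 of 16 probe sets). All of that pattern comes from the first run, since in the repeat every value was set to the floor, and no fold is given. The other C3 probe set, X52477_at, gave pool readings of 13.6 to 41.0 in the technical repeat and 23.3 to 118 in the first run, and 17.8 to 59.3 over both. Its CT 12 pools (17.8 and 59.3) enclosed its CT 0 pools (45.5 and 44.4). X52477_at was above the floor on all 18 arrays, and its CT 12 minus CT 0 was -0.47 ± 0.54 (SE on log2; limma adjusted p = 0.851 in the fit without a filter).

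Aif1, known as Iba1, is a calcium-binding protein widely used to stain microglia. On day 1 its pools read 112, 102, 136 and 147 and on day 2 they read 127, 192, 118 and 129, each from CT 0 to CT 18. The CT 12 and CT 0 pools overlapped, as did the CT 6 and CT 18 pools, and the day difference was 0.18 ± 0.20 (SE on log2, n = 4 pools per day; limma adjusted p = 0.997). The fitted amplitude was 0.04 ± 0.14, the smallest of the 6. At 36 h arrays a and b read 149.2 and 63.7, and at 24 h 146.5 and 67.6, so that arrays of 1 pool differed by more than the highest pool from the lowest (1.88-fold). The other probe sets of Aif1, U17919_s_at and U33471_at, lay below the filter. Both had CT 12 pools above their CT 0 pools, as did 25.1% of all 8740 probe sets. U33471_at also had CT 6 pools (77.7 and 94.1) above its CT 18 pools (76.2 and 49.3). Of all 8740 probe sets, 31.1% had CT 6 and CT 18 pools that did not overlap, in either direction. Over the 8 pools the 3 probe sets of Aif1 correlated with each other at -0.16, 0.36 and 0.40.

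Ptprc encodes CD45, the receptor tyrosine phosphatase of white blood cells, which microglia also carry. Its pools read 174, 206, 200 and 184 on day 1, and 173, 197, 258 and 227 on day 2, in the order of sampling. The CT 12 pools (200 and 258) were both above the CT 0 pools (174 and 173). CT 12 minus CT 0 was 0.39 ± 0.19 (SE on log2, n = 2 pools per phase; unadjusted p = 0.0686, limma adjusted p = 0.574), with a 95% interval of -0.04 to 0.82, the smallest p of any of the 6 genes in the phase and day contrasts. Without the 3 arrays with high hybridisation controls, which include 1 at each CT 12 pool, it was -0.03 ± 0.24. It was 0.20 in the technical repeat alone and 0.58 in the first run alone, where the CT 12 arrays read 287.3 at 12 h and 158.5 and 387.3 (a and b) at 36 h.

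Another Ptprc probe set, K03039mRNA_s_at, followed the first over the pools with r = 0.91 (n = 8, shared arrays), with pools of 21.2 to 50.2. The third, M10072mRNA_s_at, was under the floor on 10 of 18 arrays. All 3 had CT 12 pools above their CT 0 pools, but of all 8740 probe sets 25.1% did the same. The median CT 12 minus CT 0 over all 8740 was 0.07. Among the 6 tested probe sets, 2 had CT 12 and CT 0 pools that did not overlap (Cd74 lower, Ptprc higher), where 44.8% of all tested probe sets did. For CT 6 and CT 18 it was 2 of 6 (Cd74 and C1qb, both lower) where 31.4% did, and for the 2 days 0 of 6 where 1.88% did. Over all 16 probe sets the counts were 8 (40.5% of all 8740), 6 (31.1%) and 0 (2.16%).

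**Figure D2:**
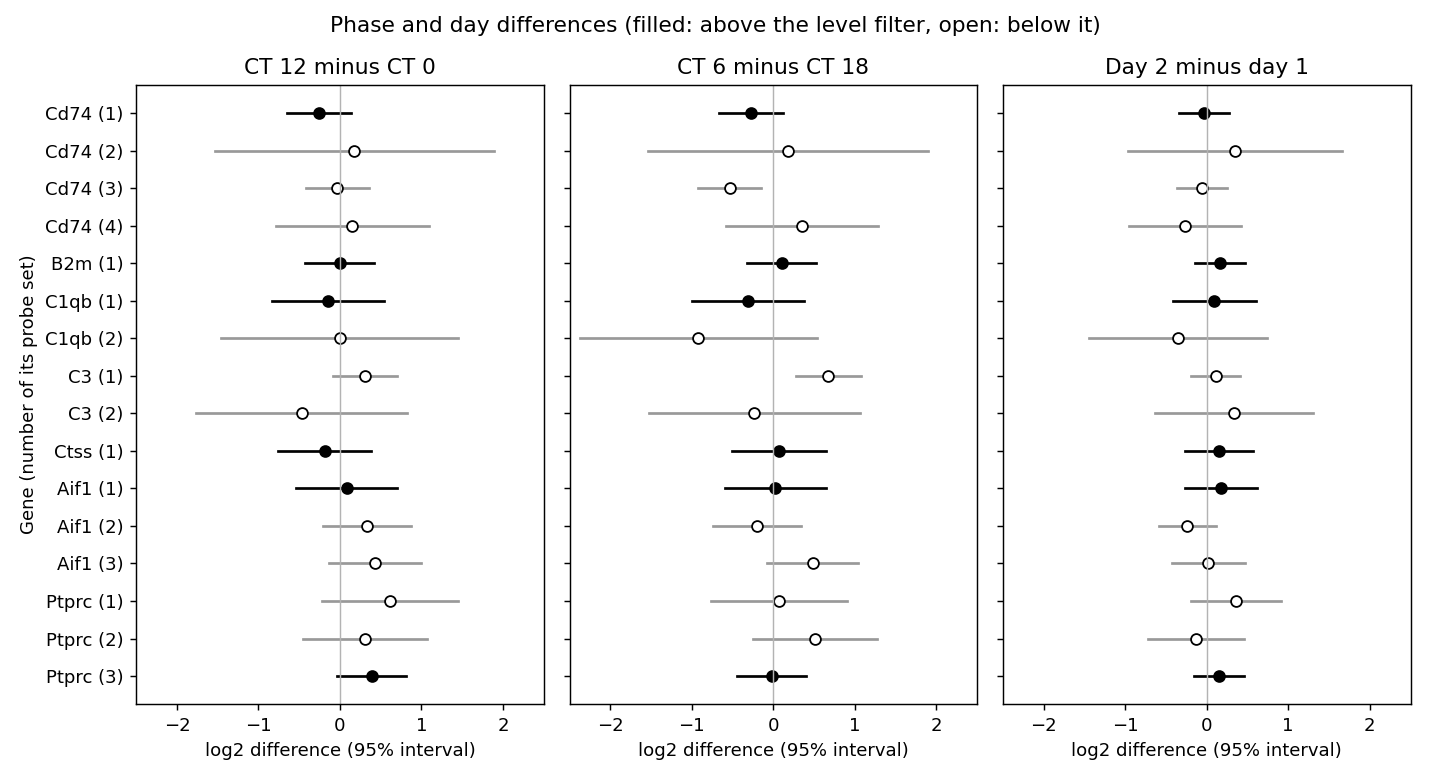
Log2 differences of the 16 probe sets, numbered within each gene in the order Cd74, B2m, C1qb, C3, Ctss, Aif1, Ptprc, for CT 12 minus CT 0, CT 6 minus CT 18 and day 2 minus day 1. Points are limma estimates and bars 95% intervals; filled points are the 6 probe sets above the level filter, whose intervals all include 0, and open points the 10 below it, in a fit without a filter.

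In C1qb and Ctss the runs differed by more than the phases or the days. Of the 6 probe sets, 3 differed between the technical repeat and the first run (limma, adjusted p under 0.05), where 48.4% of all tested probe sets did. With no level filter it was 9 of 16, where 33.8% did. C1qb was lower in the repeat, at -1.20 ± 0.23 (log2, SE, n = 8 pools; adjusted p = 0.00138). It read 127 to 325 in the repeat and 301 to 976 in the first run, and was lower in 7 of 8 pools. Ctss was higher by 0.46 ± 0.13 (adjusted p = 0.0102), at 12999 to 18531 in the repeat and 7582 to 15604 in the first run, and higher in 7 of 8 pools. Cd74 differed by -0.45 ± 0.15 (adjusted p = 0.0310) and was lower in 6 of 8 pools. B2m (-0.23 ± 0.11, adjusted p = 0.0874), Ptprc (-0.21 ± 0.15) and Aif1 (0.17 ± 0.21) did not pass. Other probe sets of Aif1 and Ptprc, below the filter, passed in the fit without a filter, with the opposite sign. For Aif1, U17919_s_at was at -1.30 (limma adjusted p = 0.00365) and U33471_at at -0.67 (adjusted p = 0.00979). For Ptprc, K03039mRNA_s_at was at 0.88 (adjusted p = 0.0372), while M10072mRNA_s_at was at -0.51 (adjusted p = 0.119). The median over all tested probe sets was -0.06.

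The call of Cd74 depended on the scaling. Scaling each array to the same median moved the median of all tested probe sets to 0.24 and Cd74 to -0.15 (limma adjusted p = 0.411), smaller than its CT 12 minus CT 0 of -0.34 in that setting. Quantile normalization gave 0.03 for the median and -0.20 for Cd74 (adjusted p = 0.290), beside a CT 12 minus CT 0 of -0.30. C1qb was -0.90 and -1.06 and Ctss 0.76 and 0.59 under these settings, past the threshold in both, while B2m and Ptprc took a positive sign with scaling to the median (0.06 and 0.08). None of the 18 tests of whether a phase or day difference itself differed between the runs had an unadjusted p under 0.05 in limma, and their adjusted p were 0.944 or more.

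**Figure D3:**
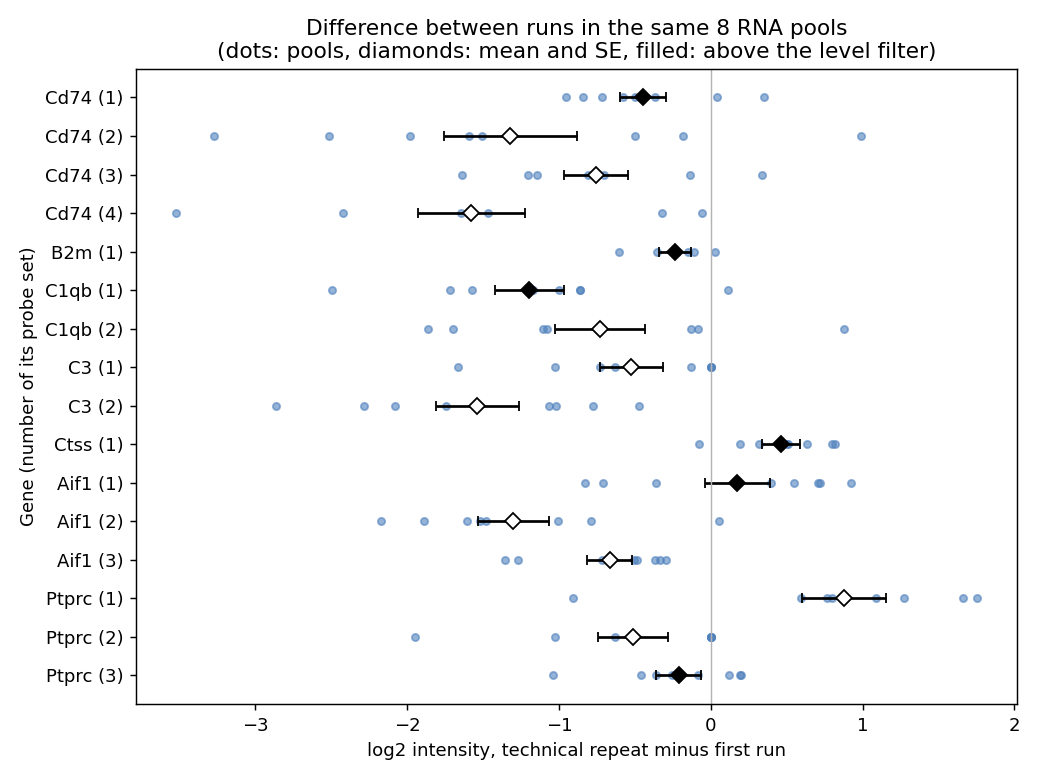
Log2 intensity in the technical repeat minus that in the first run, for the 16 probe sets. Dots are the 8 pools, diamonds the mean with its SE, filled for the 6 probe sets above the level filter. C1qb (1) lies at -1.20 and Ctss (1) at 0.46, and 9 of the 10 open diamonds lie below 0. Of all 8740 probe sets 3448 lay above 0, with a median of -0.14.

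For the 6 genes the SD between the 8 pools had a median of 0.23 on log2, and the SD that array error alone gives a pool value a median of 0.22. The ratio of both had a median of 0.92 over the 6, against 1.08 over all tested probe sets. It was 1.66 for Ctss and 1.44 for B2m, and between 0.77 and 0.94 for Cd74, Aif1, C1qb and Ptprc. For those 4 the SD between pools was below that of array error.

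**Figure D4:**
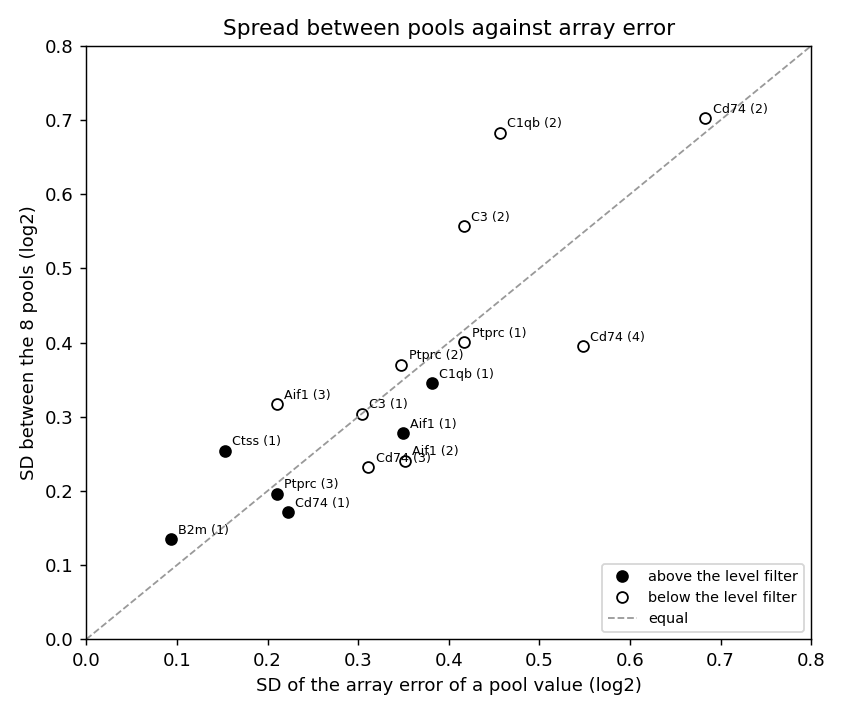
SD of log2 intensity between the 8 pools against the SD expected of a pool value from array error, for the 16 probe sets (filled: above the level filter, open: below it); the dashed line marks equality. Ctss (1) and B2m (1) lie above the line and the other 4 filled points below it.

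No common course of the 6 genes was seen over the pools. For Cd74, C1qb, Aif1 and Ptprc array error exceeded the spread between pools, so a shared course could be missed. The highest of the 15 pairwise correlations was that of C1qb and Aif1, with r = 0.65 over the 8 pools, 0.69 in the technical repeat and 0.62 in the first run. Neither gene kept its own order of pools between the runs (r = -0.10 for C1qb and -0.24 for Aif1). The values within each run, read on the same arrays, are thus not a repeat of 1 shared course. The lowest was that of C1qb and Ctss, with -0.60 over the pools, -0.85 in the repeat and 0.08 in the first run. The probe sets most like each gene over the 8 pools were Ralb for Cd74 (r = 0.96), Ctbp1 for B2m (0.97), Sparc for Ctss (0.96), Eno1 for C1qb (0.96), Ptpn5 for Aif1 (0.99) and Hpx for Ptprc (0.91). Next came Fra10ac1 and Fah for Cd74, Fdft1 and Polr3k for B2m, and Nptx1 and Rgs4 for Ctss. For C1qb they were Hsf1 and Psma6, for Aif1 P4hb and Acp2, and for Ptprc Mgst2 and Mgst1. In single runs most of these were lower: Ralb and Cd74 had 0.13 in the repeat and 0.34 in the first run, and Sparc and Ctss -0.49 and 0.92, while Ctbp1 and B2m kept 0.90 and 0.77. These are descriptions of values from the same arrays.

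The other genes of these pathways, taken from lists drawn up for this work that partly hold the 7 genes themselves, gave 0 calls after adjustment in limma. Of 10 tested genes of the complement list, 0 had an unadjusted p under 0.05 in any contrast. The nearest was C1qc, the C chain of C1q, with CT 6 minus CT 18 of 0.52 (unadjusted p = 0.104), opposite in sign to C1qb. The median of the list was 0.04 in that contrast, against -0.02 over all tested probe sets.

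In the MHC class I list 1 of 13 genes was past an unadjusted p of 0.05 for CT 6 minus CT 18 (4.26% of all tested probe sets), RT1-CE16, a class I heavy chain, higher at CT 6 than at CT 18 by 0.51 (limma unadjusted p = 0.0272). It belongs to a family of near-identical genes whose RNA may bind the same probes. Psmb9, an immunoproteasome subunit, and Fcgrt, the Fc receptor that pairs with beta-2-microglobulin, had CT 12 minus CT 0 of 0.30 and 0.31 (limma unadjusted p = 0.111 and 0.141). In the class II list 1 of 14 was past it for CT 12 minus CT 0 (8.67% of all), Ctsb, the lysosomal protease cathepsin B, with CT 12 minus CT 0 of -0.59 (limma unadjusted p = 0.0374). Ctsh, cathepsin H, had -0.38 (limma unadjusted p = 0.0582). For day 2 minus day 1, RT1-Bb, a class II beta chain, had 0.34 (limma unadjusted p = 0.0754). RT1-DMb of the same list had the opposite sign, at -0.36 (unadjusted p = 0.0783). The list medians for CT 12 minus CT 0 were -0.08 for class I and -0.11 for class II, against 0.01 over all tested probe sets.

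The microglia and macrophage list also holds genes that neurons or astrocytes express. Of its 14 tested genes, 3 were higher at CT 6 than at CT 18 at an unadjusted p under 0.05, where 4.26% of all tested probe sets passed in either direction: Coro1a, an actin regulator of leukocytes, by 0.53 (limma unadjusted p = 0.0375), Cd63, a lysosomal tetraspanin, by 0.59 (unadjusted p = 0.0367), and Cx3cl1, the chemokine that neurons show to microglia, by 0.50 (unadjusted p = 0.0379). Apoe, a lipid carrier made mainly by astrocytes, was higher at CT 12 than at CT 0 by 0.60 (limma unadjusted p = 0.0384). The list's median for CT 6 minus CT 18 was 0.07. None passed adjustment, and the members Cd74 and C1qb had negative values in that contrast. The choroid plexus markers Ttr and Kl summed to 198 to 477, highest at 6 h and lowest at 18 h. They differed in sign, with CT 6 minus CT 18 of 2.04 for Ttr and -0.20 for Kl. The sum thus does not show a course that both markers share. The part of choroid plexus tissue in the values of the list was not tested.

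Leukocyte genes were mostly dim, with 6 of 21 above the filter. Of all genes of the array 2820 of 4736 were above it, the share to set beside this and the next counts. Il2rb, the beta chain of the IL-2 receptor, had CT 12 minus CT 0 of 1.01 (unadjusted p = 0.00438, limma adjusted p = 0.492). Of the T cell markers on the array 1 of 5 was above the filter (Cd8b), and Cd3g, Cd2, Cd5 and Cd8a were not, while the only B cell marker on the array, Cd79b, was also below it. The summed intensity of the 5 T cell markers was 321 to 410 over the pools, with Cd8b alone at 176 to 246. Cd79b alone read 28.5 to 111, and these ranges do not compare T with B cells. Of 42 cytokine and receptor genes 12 were above the filter. Among them were the cytokines Mif (geometric mean 4262), Cx3cl1 (1911), Il18 (722) and Csf1 (240), while Il1b, Il6 and Tnf were not. Of these 12, 2 were higher at CT 6 than at CT 18 at an unadjusted p under 0.05 (4.26% of all tested probe sets passed), Cx3cl1, already counted above, and Il1r2, the decoy receptor of interleukin 1 (0.51, limma unadjusted p = 0.0462).

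Among 9 tested interferon and NF-kB response genes, 2 were higher at CT 12 than at CT 0 at an unadjusted p under 0.05 (8.67% of all tested probe sets passed): Cebpd, a transcription factor of acute responses, by 0.90 (limma unadjusted p = 0.00804), and Oas1a, an antiviral enzyme, by 0.51 (unadjusted p = 0.0353). Another 2 were lower on day 2 than on day 1 (3.96% of all passed), Nos2, inducible nitric oxide synthase, at -1.18 (unadjusted p = 0.00502, limma adjusted p = 0.997) and Mx2, an antiviral GTPase, at -0.31 (unadjusted p = 0.0443). B2m had -0.00 for CT 12 minus CT 0 and 0.16 for day 2 minus day 1, and Ctss had -0.19 and 0.15. A link between the interferon core in their promoters and these values was not tested. The red cell markers Hbb and Alas2 summed to 4265 to 8698 over the pools, highest at 0 h, and day 2 minus day 1 of Hbb was -0.45 (limma unadjusted p = 0.0439). The part of blood in the values of Ptprc and B2m, which blood cells also express, was not tested.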

How the data were processed

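Arrays were read as the probe set intensities that the authors deposited, on a linear scale. How probes were summarised, with which software and to which target arrays were scaled, is not given in the sources used here. After trimming 2% at each end, the mean was 500.7 to 500.8 on all 18 arrays, so values were kept as scaled. Array medians were 107.9 to 127.6 in the technical repeat and 136.5 to 152.3 in the first run. The number of arrays limits the precision.

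Values under the 10th percentile (12.1) were set to that floor and log2 was taken from the deposited intensities. Arrays a and b, assumed here to read 1 pool, were averaged, then both runs. The 59 control probe sets were left out. Of the other 8740, 7006 had 1 symbol in the platform annotation, 308 several and 1426 none, and 6985 matched RefSeq (GRCr8) with 0 symbols changed. A cosine and sine of 24 h were fitted with limma 3.58.1 in R 4.3.3 (5 residual and 5.13 prior degrees of freedom). CT 12 minus CT 0 and CT 6 minus CT 18 came from the 2 terms, and a day term was added for the days. Runs were compared by the 8 paired differences. Fits were tested on simulated data. Exact permutations cannot go below p = 0.00317 for the rhythm, 0.0286 for 4 against 4 pools and 0.333 for 2 against 2.

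The members and gene lists were chosen with earlier results of these data known. Named besides the members were up to 4 genes of each list by smallest unadjusted p and the 3 genes most correlated with each tested member. Other list genes are named for their level only. List genes used 1 probe set each. The 48 h time point and the cell line were not analysed here.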

Additional observations from a re-analysis of the deposited data

Results flagged for a closer look

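A total of 3 single pools of dim probe sets stood far from the others of their group by Dixon's test at 95%. Among 48 groups tested in this way, chance flags about 5%. The Cd74 probe set X13044_g_at read 112 in the 30 h pool, against 29.0 to 35.9 in the other pools of day 2. There the technical repeat read 66.7 and the first run 189.3. The Aif1 probe set U33471_at read 55.8 in the 0 h pool, against 75.3 to 77.7 in the other pools of day 1. The Ptprc probe set K03039mRNA_s_at read 50.2 in the 36 h pool, against 21.2 to 29.6 in the other 7 pools. There the technical repeat read 78.1 and the first-run arrays 23.3 and 44.8. All of these probe sets lie below the level filter, and their pool values were not used in the adjusted tests above it.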

How the results depend on the processing

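The count of tested probe sets past the adjusted threshold was 0 for the rhythm, both phase differences and the day difference in all 22 alternatives, which tested all 6 except for 2 with the filter at the 75th percentile and 5 in the first run alone (normalization, filter, floor or pseudocount, limma options, single runs, arrays or pools left out, other designs). The lowest adjusted p over them were 0.638, 0.50, 0.704 and 0.728. Of 127 single values each, 14 of CT 12 minus CT 0, 11 of CT 6 minus CT 18 and 9 of day 2 minus day 1 took the other sign, none of them past a threshold. For the difference between runs the count of 3 was 1 with a filter at the 75th percentile, where only Ctss and B2m remained to be tested, and was 2 to 3 when 1 pool was left out. The call of Cd74 was lost in 10 of 16 alternatives, and B2m passed with quantile normalization (-0.26, adjusted p = 0.0490). C1qb and Ctss passed in every alternative that could test them (16 and 17).

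With 2 pools per phase and array error of about the size of the spread between pools, the printed intervals were wide. Differences inside them stay compatible with these values. The probe sets M29866_s_at (C3), X14254cds_at (Cd74) and M10072mRNA_s_at (Ptprc) were at or under the floor on many arrays.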
